A study of Mus musculus with 22 samples.

Results

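The nuclear genes of the respiratory chain were examined in 22 mouse liver libraries. Members were taken by gene symbol, as every symbol beginning with Ndufa, Ndufb, Ndufc, Ndufs or Ndufv, Uqcr, Cox4 to Cox8 or Atp5, together with Sdha, Sdhb, Sdhc and Sdhd. This gave 91 of the 18716 rows of the table, of which 81 encode subunits and 10 encode assembly factors or proteins that only share the symbol. The subunits divide into 38 of complex I, 4 of complex II, 8 of complex III, 16 of complex IV and 15 of complex V. Ndufa4 and its relative Ndufa4l2 stay with complex I here by symbol, although the Ndufa4 protein is now counted with complex IV. Cyc1, Cycs and the genes of the mitochondrial genome fall outside these symbols, and the table holds 0 rows for mitochondrial genes.

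All livers carried the genotype Fah-/-, the loss of the last enzyme of tyrosine breakdown, which NTBC (nitisinone), a blocker of an earlier step, makes harmless. The D0 group is 7 libraries taken on day 0 and labelled as normal liver. The vehicle group is 8 libraries from mice that received td-Hepatocytes and were then given vehicle for 28 days after NTBC was stopped. The YC group is 7 libraries from mice handled in the same way but given an agent labelled YC. Strain, sex and age are not in the labels used here, and a recipient liver holds both host and donor cells. The series asks whether YC made transplanted hepatocytes grow through dedifferentiation. In whole liver, fewer cells of a type and less RNA per cell cannot be told apart.

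The respiratory chain sits in the inner mitochondrial membrane. Complex I takes electrons from NADH and complex II takes them from succinate, and both pass them through coenzyme Q to complex III, then through cytochrome c to complex IV, which reduces oxygen. Protons pumped on the way drive complex V, the ATP synthase. Complex II is fully nuclear-encoded and is also an enzyme of the tricarboxylic acid cycle, whereas the other complexes join nuclear subunits with a few made inside the mitochondrion. Hepatocytes are rich in mitochondria and use the chain for gluconeogenesis, urea synthesis and fatty acid oxidation. Several complex IV subunits exist as a ubiquitous form and a second form that predominates in muscle, lung or testis.

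Nuclear respiratory genes are known for promoters with sites for the factors NRF1, GABP (an ETS factor), YY1, Sp1 and ERR, so the members' promoters were searched for these letters. Of the 91 members, 76 had a promoter of 300 bases in the RefSeq table of build GRCm38.p6. Among those not matched were Ndufs1, Ndufa2, Ndufb9, Ndufa4l2, Ndufaf6, Sdhc, Uqcrc2, Uqcrb, Uqcrq, Cox4i1, Cox4i2, Cox6a2, Cox6c and Atp5a1. The 5 promoters below are the 250 bases before the start, 5′ to 3′ on the strand of the gene, with matches that lie wholly inside the stretch in capitals. They show Uqcr11, a complex III subunit lower in YC than in vehicle livers, Cox6a1 and Cox8b, a ubiquitous and a muscle form of complex IV subunits, and Atp5g2 and Atp5g3, which encode the same ring of complex V. All 5 genes lie on the minus strand, at chr10:80406822-80407071, chr5:115348959-115349208, chr7:140900447-140900696, chr15:102671048-102671297 and chr2:73911327-73911576 in that order.
Uqcr11: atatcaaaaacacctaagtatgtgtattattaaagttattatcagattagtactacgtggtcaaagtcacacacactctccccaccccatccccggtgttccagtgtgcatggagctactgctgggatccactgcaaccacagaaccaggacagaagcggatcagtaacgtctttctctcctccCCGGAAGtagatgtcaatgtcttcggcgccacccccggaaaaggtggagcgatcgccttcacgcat
Cox6a1: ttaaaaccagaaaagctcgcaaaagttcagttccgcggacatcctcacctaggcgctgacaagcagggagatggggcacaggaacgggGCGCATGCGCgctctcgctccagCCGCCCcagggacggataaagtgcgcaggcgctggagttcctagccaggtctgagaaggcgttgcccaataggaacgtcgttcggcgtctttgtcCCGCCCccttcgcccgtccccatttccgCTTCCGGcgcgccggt
Cox8b: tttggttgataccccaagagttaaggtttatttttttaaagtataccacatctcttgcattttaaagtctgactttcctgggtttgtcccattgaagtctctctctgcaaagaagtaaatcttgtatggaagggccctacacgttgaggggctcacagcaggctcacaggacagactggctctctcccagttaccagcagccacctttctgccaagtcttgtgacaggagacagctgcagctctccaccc
Atp5g2: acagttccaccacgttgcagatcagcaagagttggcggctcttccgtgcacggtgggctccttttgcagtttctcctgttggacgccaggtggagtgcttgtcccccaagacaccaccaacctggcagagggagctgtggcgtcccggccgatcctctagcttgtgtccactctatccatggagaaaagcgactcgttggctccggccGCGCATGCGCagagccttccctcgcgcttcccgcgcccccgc
Atp5g3: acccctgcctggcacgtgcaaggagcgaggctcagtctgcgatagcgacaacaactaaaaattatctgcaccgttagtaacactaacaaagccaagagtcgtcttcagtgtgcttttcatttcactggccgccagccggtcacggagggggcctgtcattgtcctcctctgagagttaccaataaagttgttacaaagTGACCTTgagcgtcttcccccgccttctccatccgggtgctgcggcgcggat

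In Uqcr11 the capitals mark CCGGAAG, the ETS letters, from 66 bases before the start, and an NRF1 match begins 4 bases before the start and runs past the stretch. Cox6a1 holds the NRF1 letters GCGCATGC on both strands, overlapping, from 162 and 160 bases before the start. It also holds the Sp1 letters GGGCGG at 139 and 44 bases and the ETS letters at 16 bases, all on the other strand. Atp5g2 holds the overlapping NRF1 pair at 42 and 40 bases, and an Sp1 match from 4 bases before the start that runs past the stretch. The Atp5g2 stretch lies inside the annotated gene (chr15:102662864-102672352), so the RefSeq start used for it is internal to that span. Atp5g3 holds none of these but has the ERR letters AAGGTCA on the other strand at 52 bases. The Cox8b stretch holds none of the searched letters. Searched on either strand in all 300 bases, NRF1 letters were in 12 of 76 members (15.8%), in 3.05% of all genes of the promoter table and in 5.78% of the tested genes it matched. The YY1 letters AAGATGGC were in 11 members (14.5%), against 3.19% and 5.15%. Among matched subunits they were in 7 of 33 of complex I (21.2%) and 3 of 14 of complex V (21.4%). They were in 0 of 3 of complex II, 0 of 5 of complex III and 0 of 12 of complex IV. ETS letters were in 17 members (22.4%), against 9.93% and 19.5%, and ERR letters in 8 (10.5%), against 5.38% and 4.29%. Sp1 letters were in 34 members (44.7%), which is above all genes at 38.2% and below tested genes at 66.5%. A match is a string of letters and no measured binding site.

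Several differences between libraries bear on every comparison. The library vehicle 3 holds skeletal muscle transcripts: all 10 listed muscle markers were highest there, their sum was 4686 RPKM, and the other 7 vehicle libraries summed to between 1.48 and 3.32. D0 libraries summed to between 1.09 and 3.48 and YC libraries to between 2.49 and 4.64. The heart and brown fat lists were also highest in vehicle 3, at sums of 10.2 and 92.9 RPKM, of which the member Cox8b made 81.8. Among their genes Tnnt2 was at 6.92, Cpt1b at 7.01, Actc1 at 1.74 and Myh6 at 0.0132 RPKM there, and Ucp1 was listed at 0. Pancreatic acinar markers summed to 292 RPKM in vehicle 1, where the other vehicle libraries held 16.7 to 33.6, and to 850 in YC 4, where the other YC libraries held 25.1 to 106. Y-linked transcripts reached 1 RPKM in 0 of 7 D0 libraries, 8 of 8 vehicle libraries and 3 of 7 YC libraries, so in vehicle against D0 they cannot be told apart from the treatment. Fah was between 21.1 and 38.7 RPKM in D0, 271 and 542 in vehicle and 31.5 and 407 in YC livers. Hepatocyte markers were abundant in every library, and their sum was lowest in YC 6 and YC 7, at 34337 and 34245 RPKM, where the other YC libraries held between 42157 and 61162. Their median sum was 58591 RPKM in D0, 71543 in vehicle and 43547 in YC livers. In the same order the medians were 211, 827 and 527 for macrophage markers, 42.1, 206 and 245 for bile duct markers and 113, 183 and 242 for stellate cell markers. For neutrophil markers they were 9.15, 55.4 and 209, with the highest sum, 391, in YC 7, and for erythroid markers 22.5, 110 and 60.1. Lymphocyte markers were at 5.94, 11.5 and 5.47 and sinusoidal endothelial markers at 202, 229 and 168. The part of these shifts in cell markers in the subunit differences was not tested.

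Subunit transcripts were abundant everywhere. Their part of all RPKM was 2.83% ± 0.309 (SD, n = 7) at D0, 3.36% ± 0.718 (SD, n = 8) with vehicle and 3.36% ± 0.733 (SD, n = 7) with YC. Cox4i1, Ndufa4, Cox6a1 and Atp5b ranked 72, 76, 78 and 79 of all rows by mean RPKM, and the lowest ubiquitous subunit was Ndufa11 with a mean of 29.7 RPKM. The summed subunit level varied widely inside the treated groups. It ran from 12816 to 18840 RPKM in D0, from 12679 in vehicle 1 to 30913 in vehicle 3, and from 14303 to 16229 in 5 YC libraries with YC 6 at 23921 and YC 7 at 28312. Within a library, complexes I, III, IV and V stood high or low together, and complex II moved less.

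**Figure D1:**
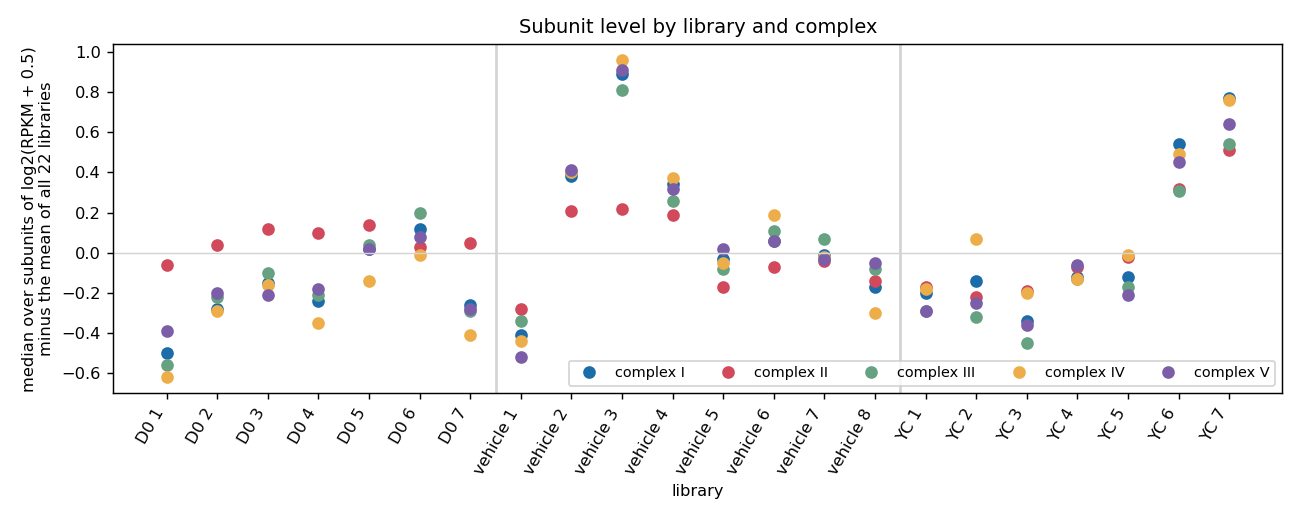
Median over the subunits of each complex (5 colours) of log2(RPKM + 0.5), minus the mean of all 22 libraries, for each library on the horizontal axis. Vehicle 3 reached 0.96 for complex IV but 0.22 for complex II, YC 6 and YC 7 stood above the other 5 YC libraries in every complex, and complex II lay highest of the 5 complexes in 6 of 7 D0 libraries.

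From D0 to vehicle with all libraries, called subunits were all higher and lay outside complex II, which has only 4 subunits. Called subunits made up a share no larger than that of genes at large. Levels are RPKM (reads scaled to transcript length and library total), every fold change was taken as a difference of log2(RPKM + 0.5), and a gene is called at a limma adjusted p under 0.05. Many of these genes have processed pseudogenes, and how shared reads were counted is unknown here, so the levels carry that uncertainty. Of the 77 subunits tested, 19 (24.7%) were called higher and 0 lower, where 28.2% of the 12537 tested genes were called higher and 29.9% lower. At an unadjusted p under 0.05, 27 were higher and 0 lower. The median log2 fold change was 0.29, where that of all tested genes was 0.00. The called members were 9 of 38 in complex I, 0 of 4 in complex II, 2 of 8 in complex III, 5 of 12 in complex IV and 3 of 15 in complex V, and complex II had 0 in either direction also at an unadjusted p. Other genes had higher medians than subunits of like transcript length below 2000 bases (0.44 against 0.35, 0.42 against 0.37 and 0.21 against 0.15), a difference that was not tested. Median log2 fold changes by complex were 0.29, -0.14, 0.34, 0.43 and 0.29 in that order. Without vehicle 1, the lowest vehicle library, 33 (42.9%) were called higher, where 29.3% of all genes were. Without vehicle 3 there were 13 (16.9%), where 26.5% of all genes were called higher.

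In complex I, 8 of the 9 called members were accessory subunits, as are 30 of all its 38 subunits. Among the 30 accessory subunits, which surround the catalytic core and help to assemble it, 8 were called higher, and among the 7 core subunits, which bind flavin and the iron-sulfur clusters, 0 were. The accessory share of 26.7% lies near the 28.2% of all tested genes called higher. The core median was 0.15 and the accessory median 0.32, and this gap was not tested. Ndufa13, also known as Grim19, ranged from 71.3 to 110 RPKM with a median of 82.9 in D0 and from 90.1 to 227 with a median of 169 in vehicle livers. The groups overlapped, with 7 of 8 vehicle libraries above every D0 library, and the difference was 0.85 on the log2 scale (SE 0.19, limma adjusted p = 0.000616). Ndufa8, a protein of the intermembrane space side, went from a median of 88.3 in D0 to 160 RPKM in vehicle livers, a log2 difference of 0.66 (SE 0.18, limma adjusted p = 0.0035). Ndufa4l2, treated with the isoforms, was the remaining called member. Core Ndufs1, which carries iron-sulfur clusters of the NADH module, had a log2 fold change of -0.25 (95% interval -0.52 to 0.01) and was not called. Without vehicle 1, core Ndufs3 and Ndufs8 were called higher, at 0.49 and 0.50 (limma adjusted p = 0.0208 and 0.0271). Ndufs1 was then called lower, at -0.36 (limma adjusted p = 0.0036), and the other core subunits were not called.

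In complex II, 3 of the 4 subunits had lower values in vehicle than in D0 livers and 0 were called. Sdha, the flavoprotein that oxidises succinate (chr13:74322254-74350280), ranged from 149 to 207 RPKM with a median of 178 in D0 and from 132 to 164 with a median of 151 in vehicle livers. The log2 fold change of Sdha was -0.24 (95% interval -0.49 to 0.01). Sdhb, the iron-sulfur subunit and the most abundant of the 4, had a log2 fold change of 0.26 (95% interval -0.09 to 0.61). The membrane anchors Sdhc and Sdhd stood at -0.35 (95% interval -0.76 to 0.05) and -0.05 (95% interval -0.29 to 0.20). The summed RPKM of complex II was 850 ± 46.8 (SD, n = 7) in D0 and 828 ± 140 (SD, n = 8) in vehicle livers, while that of all subunits was 15577 ± 2032 and 20004 ± 5546. Its part of the summed subunit RPKM was 5.51% ± 0.511 (SD, n = 7) in D0, 4.25% ± 0.529 (SD, n = 8) in vehicle and 4.47% ± 0.43 (SD, n = 7) in YC livers.

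In complex III, Uqcrq and Uqcr11 rose from D0 to vehicle. Uqcrq, a small accessory subunit (chr11:53427922-53430831), ranged from 107 to 207 RPKM with a median of 138 in D0 and from 134 to 425 with a median of 232 in vehicle livers. It rose by 0.68 on the log2 scale (SE 0.22, limma adjusted p = 0.00911), with 6 of 8 vehicle libraries above every D0 library. Uqcr11, another small accessory subunit (chr10:80402997-80406830), changed by 0.63 (SE 0.23, limma adjusted p = 0.0227). Uqcrh, the hinge protein that meets cytochrome c1 and the most abundant of the complex, had a log2 fold change of 0.35 and was not called.

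In complex IV, 5 of 12 tested subunits were called higher. All 12 lay above the median of all genes, but without vehicle 3 the muscle form Cox7a1 went from 0.24 to -0.35 and did not. Cox4i1, the ubiquitous form of the regulatory subunit 4 (chr8:120668222-120674207), ranged from 455 to 707 RPKM with a median of 656 in D0 and from 462 to 1468 with a median of 1039 in vehicle livers. Of 8 vehicle libraries, 6 were above every D0 library, and the log2 fold change was 0.63 (SE 0.19, limma adjusted p = 0.00724). Cox6a1 and Cox7a2, ubiquitous forms of small subunits, had log2 fold changes of 0.56 and 0.55, the latter at a limma adjusted p of 0.05 after rounding. Cox6b1, which faces the intermembrane space, changed by 0.54 and Cox6b2, its testis-enriched relative, by 0.84 from 0.973 ± 0.389 RPKM (SD, n = 7). Cox8a, at 0.40, was not called. Without vehicle 3, Cox6a1 and Cox7a2 had log2 fold changes of 0.47 and 0.45 and were no longer called.

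In complex V, all 15 subunits had positive fold changes and 3 were called. Atp5d, the delta subunit of the rotating central stalk (chr10:80138632-80145818), ranged from 149 to 298 RPKM with a median of 248 in D0 and from 145 to 519 with a median of 394 in vehicle livers. Its log2 rise was 0.63 (SE 0.21, limma adjusted p = 0.0138), and 6 of 8 vehicle libraries were above every D0 library while vehicle 1 was below all of them. Atp5g2, one of the genes of the c ring (chr15:102662864-102672352), rose by 0.57 (SE 0.14, limma adjusted p = 0.00171). Atp5b, the catalytic beta subunit, had a log2 fold change of 0.27 (95% interval 0.03 to 0.52) and a limma adjusted p of 0.0521.

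**Figure D2:**
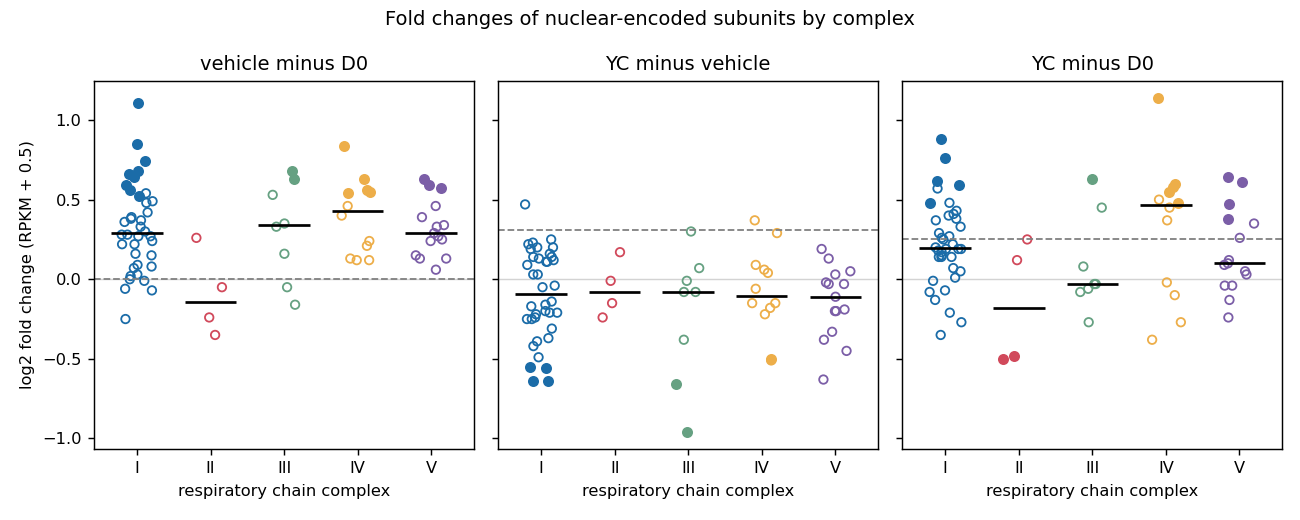
Log2 fold change of each of the 77 tested subunits (circles, filled where called) by complex on the horizontal axis for the 3 comparisons, with the median of each complex (bar) and of all 12537 tested genes (dashed line). In vehicle minus D0 complex II has a median of -0.14 and the other complexes lie between 0.29 and 0.43, and in YC minus vehicle nearly all circles fall below the dashed line at 0.31.

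Between YC and vehicle livers, which both received donor cells, subunits lay below the bulk of genes. Of 77 subunits, 0 were called higher and 7 lower, where 44.6% of all tested genes were called higher and 6.14% lower. Genes of like transcript length gave other shares. Under 700 bases, 19.1% of genes outside the members were called higher and 18.3% lower, where 35 subunits gave 0 and 4. At an unadjusted p under 0.05, limma gave 2 higher, Ndufab1 at 0.47 and Cox5a at 0.37, and 11 lower, and without the trend and robust options it called 1 higher. The median log2 fold change was -0.08, where that of all genes was 0.31, and 2 of 77 subunits exceeded that all-gene median. Complexes I to V had medians of -0.10, -0.08, -0.08, -0.11 and -0.11, and differences between complexes were not tested. When each library was scaled by its median ratio to a common reference, the median of all genes was 0.01, 0 subunits were called higher and 29 lower, where 18.2% of all genes were called higher and 16.7% lower. Of these 29, 17 were in complex I, 1 in complex II (Sdha at -0.59), 3 in complex III, 1 in complex IV (Cox6c at -0.85) and 7 in complex V.

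The 7 called subunits were Ndufb11, Ndufa4l2, Ndufb2 and Ndufa2 of complex I, Uqcrq and Uqcr11 of complex III and Cox6c of complex IV. In complexes II and V limma called 0, with 0 and 2 lower at an unadjusted p under 0.05, the latter Atp5e at -0.63 and Atp5l at -0.45. Uqcrq had the largest change of the 77: 5 of 7 YC libraries lay below every vehicle library, with a YC range of 81.9 to 177 RPKM and a median of 125. This was a log2 change of -0.96 (SE 0.22, limma adjusted p = 0.000889), with the level 1.94-fold lower. Uqcr11 ranged from 133 to 338 RPKM with a median of 170 in YC livers and from 149 to 524 with a median of 337 in vehicle livers, and its log2 fold change was -0.66 (SE 0.23, limma adjusted p = 0.0208).

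Ndufb11, an X-linked membrane-arm subunit of complex I (chrX:20615326-20617619), ranged from 137 to 392 RPKM with a median of 157 in YC livers. The vehicle range was 179 to 417 with a median of 317, and 5 of 7 YC libraries were below all vehicle libraries while YC 7 was at 392. It changed by -0.64 on the log2 scale (SE 0.22, limma adjusted p = 0.0193). Ndufb2 and Ndufa2, accessory subunits of the membrane arm and of the NADH module, had log2 fold changes of -0.56 and -0.55 at limma adjusted p of 0.0478 and 0.0497. Cox6c, a small subunit without a muscle form (chr15:35925886-35938246), ranged from 252 to 589 RPKM with a median of 307 in YC livers and from 321 to 806 with a median of 420 in vehicle livers. Of the YC libraries, 4 were below every vehicle library, and the log2 change was -0.50 (SE 0.20, limma adjusted p = 0.0382).

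These counts move with single libraries. The 7 calls became 4 without vehicle 3, in which Ndufb2, Ndufa2 and Cox6c were at -0.42, -0.47 and -0.39 and no longer called, and 3 were then called higher, Ndufab1 at 0.60, Cox5a at 0.47 and Cox6b2 at 0.47. In that run the median of the 77 subunits turned to 0.03, where that of all genes was 0.31. Of the subunits 5.19% were called lower and 3.9% higher, where all genes gave 5.34% and 43.1%. Other single libraries moved the 0 called higher to 2 (vehicle 2 or YC 4 left out) or 1 (YC 2 or YC 3). Without both YC 6 and YC 7 the number called lower was 27 (35.1%, where 7.2% of all genes were), with a median of -0.29. In the 3 YC and 8 vehicle libraries with Y-linked transcripts it was 18 (23.4%, where 6.05% of all genes were), with a median of -0.33, and Uqcrq was at -1.28. Without vehicle 1 it was 15 (19.5%, where 7.38% of all genes were), without YC 7 it was 16, without vehicle 4, YC 2 or YC 3 it was 4, and without vehicle 2, YC 1 or YC 5 it was 3. Uqcrq was called lower in every alternative run, with log2 fold changes between -1.30 and -0.84.

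**Figure D3:**
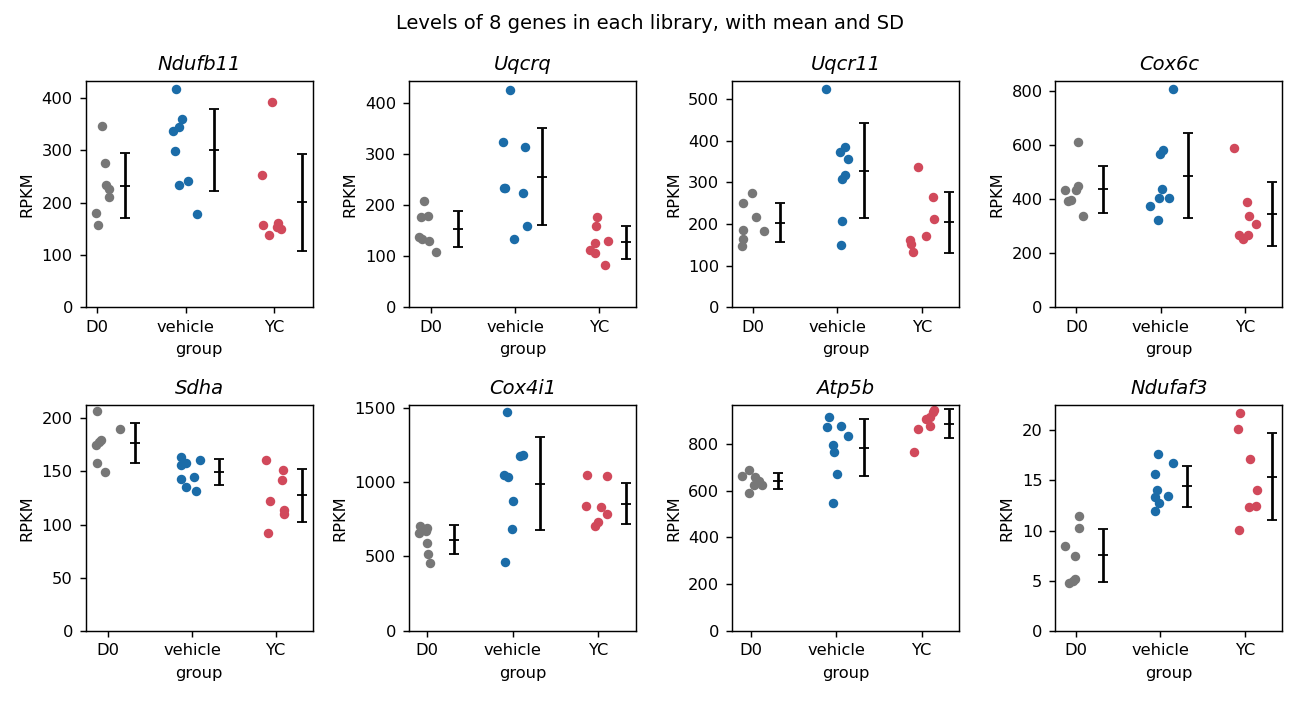
RPKM of 8 genes in every library (points) by group, with mean and SD at the side. Uqcrq, Uqcr11, Ndufb11 and Cox6c have lower medians in YC (125, 170, 157 and 307 RPKM) than in vehicle (232, 337, 317 and 420), Sdha has its highest value, 207 RPKM, in D0, and Atp5b and Ndufaf3 are higher in YC than D0.

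Against D0 livers, and as deposited, YC livers had called-higher members in every complex but II, and both called-lower members were in complex II. Of 77 subunits, 15 were called higher and 2 lower, where 41.2% of all genes were called higher and 12.3% lower. With median-ratio scaling 2 were called higher and 10 lower, where 25.8% of all genes were called higher and 28.6% lower. Median log2 fold changes of complexes I to V were 0.20, -0.18, -0.03, 0.46 and 0.10, where the median of all genes was 0.25. After scaling they were -0.15, -0.53, -0.37, 0.12 and -0.25, where it was -0.05, so the sign of complexes I and V turned. This comparison shares its groups with the other comparisons and is no separate evidence.

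The 2 subunits called lower were Sdha and Sdhc of complex II. Sdha ranged from 92.2 to 161 RPKM with a median of 122 in YC livers, and 5 of 7 YC libraries lay below every D0 library. It fell by 0.48 on the log2 scale (SE 0.13, limma adjusted p = 0.00225). Sdhc (chr1:171127165-171150603) ranged from 113 to 244 RPKM with a median of 135 in YC and from 175 to 254 with a median of 240 in D0 livers, and its log2 fold change was -0.50 (SE 0.20, limma adjusted p = 0.0393). Both were also called lower after median-ratio scaling, at -0.83 and -0.85. Sdhb and Sdhd were at 0.25 and 0.12 and were not called. Without YC 6 and YC 7, Sdha was at -0.36 and Sdhc at -0.75. In the 4 YC and 7 D0 libraries without Y-linked transcripts, Sdha was at -0.49 and called, and Sdhc was at -0.35 and not called.

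Of 77 subunits, 8 (10.4%) lay in YC wholly above D0, a smaller share than the 19.4% of all tested genes that did. They hold 7 of the 15 called higher, Ndufs3, Ndufa11, Ndufa8, Uqcrc1, Cox5a, Cox6b2 and Atp5b. Atp5b (chr10:128083273-128090391) ranged from 767 to 943 RPKM with a median of 908 in YC livers and from 590 to 689 with a median of 642 in D0 livers, and its log2 fold change was 0.47 (SE 0.12, limma adjusted p = 0.00273). Uqcrc1, a core protein on the matrix side of complex III, ranged from 260 to 366 RPKM in YC and from 157 to 248 in D0 livers and rose by 0.63 on the log2 scale (SE 0.19, limma adjusted p = 0.00716). Cox6b2 had the largest change, 1.14 (SE 0.23, limma adjusted p = 0.00026), at a level of 2.67 ± 0.49 RPKM (SD, n = 7) in YC livers. After median-ratio scaling, of these 7 only Ndufa8 and Cox6b2 were called, at 0.53 and 0.87. Without YC 6 and YC 7 the count was 6 higher and 5 lower (7.79% and 6.49%), where all genes gave 42% and 14.4%. In the libraries without Y-linked transcripts it was 23 and 1 (29.9% and 1.3%), where all genes gave 32.7% and 9.12%. The 15 also fell to 8 without D0 1 and to 9 without D0 4 or YC 6. The 2 lower calls became 1 without D0 3, D0 4, D0 5, D0 6, YC 1, YC 2, YC 3, YC 4 or YC 5, and 4 without YC 7.

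The complexes' parts of the summed subunit RPKM are given as a description. Complex I took 31.2% ± 0.776 in D0, 30.9% ± 0.847 in vehicle and 30.7% ± 1.65 in YC livers, and complex V 29.8% ± 0.657, 29.4% ± 0.816 and 29.8% ± 1.26 (SD, n = 7, 8 and 7). Complex IV took 22.1% ± 0.635, 24% ± 1.67 and 24.3% ± 0.443, and the YC range of 23.6% to 25% lay above the D0 range of 21% to 22.8%. For complex III they were 11.4% ± 0.146, 11.5% ± 0.17 and 10.7% ± 0.263, and the YC range of 10.5% to 11.3% overlapped the vehicle range of 11.2% to 11.7%. These sums are led by the most abundant genes and were not tested.

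The forms that predominate in muscle were near 0 in liver apart from vehicle 3. Cox6a2, the form of subunit 6a in heart and skeletal muscle, was 168 RPKM in vehicle 3 and between 0.0422 and 0.38 in the other vehicle libraries. It was at most 0.0842 in D0 and 1.45 in YC livers. Cox8b was 81.8 RPKM in vehicle 3 and at most 0.658 in the other libraries. Cox7a1, which liver also held at 3.1 ± 1.08 RPKM (SD, n = 7) in D0, was 70.7 in vehicle 3 and at most 4.93 elsewhere. These 3 genes were high in the library in which the muscle markers Acta1 and Ckm stood at 1311 and 805 RPKM. Cox4i2, the lung form, was between 0.0541 and 0.783 RPKM, and Cox7b2 was listed at 0 in every library but YC 6, at 0.0527. Cox4i2, Cox6a2, Cox7b2 and Cox8b did not reach 0.5 RPKM in 7 libraries and were not tested.

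**Figure D4:**
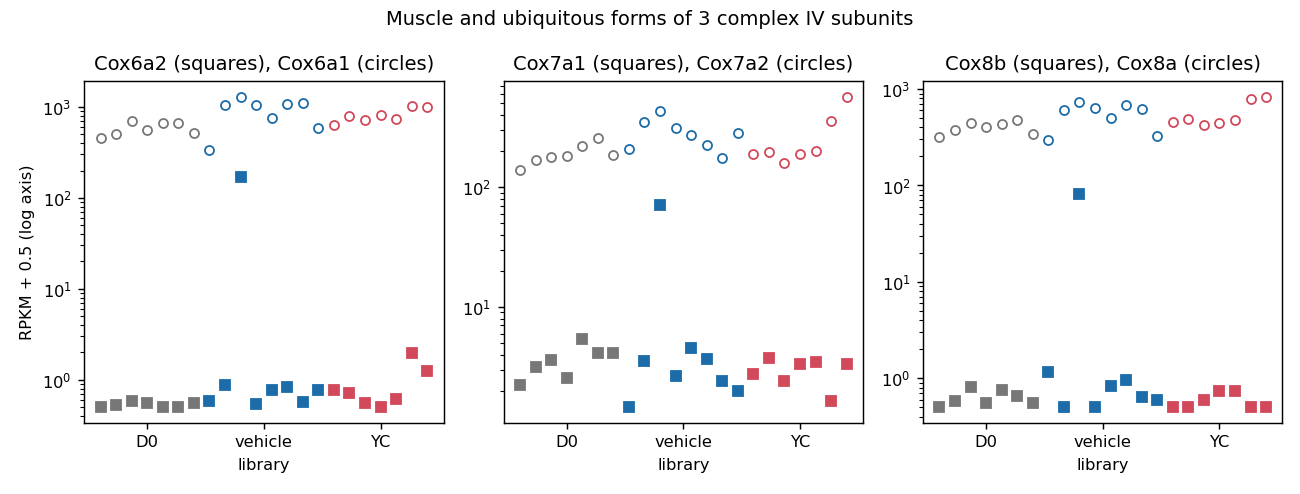
RPKM + 0.5 on a log axis of the muscle form (squares) and ubiquitous form (circles) of 3 complex IV subunits in each library, in replicate order within D0 (gray), vehicle (blue) and YC (red). In vehicle 3 the muscle forms reach 168, 70.7 and 81.8 RPKM, and the ubiquitous forms there are also the highest of the vehicle group.

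Ratios between paired genes were compared with exact two-sided permutation tests, in 9 pairs and 27 comparisons adjusted together. Of these, 4 passed an adjusted p of 0.05. Ndufa4l2, a hypoxia-inducible relative of Ndufa4, was between 0.644 and 1.49 RPKM with a median of 1.04 in D0 livers, between 1.44 and 4.33 with a median of 3.03 in vehicle livers and between 0.412 and 2.91 with a median of 2.03 in YC livers. It rose from D0 to vehicle by 1.11 (SE 0.24, limma adjusted p = 0.000389), with 7 of 8 vehicle libraries above every D0 library, while Ndufa4 was between 602 and 1007 in D0 and between 676 and 1293 in vehicle. The log2 ratio of Ndufa4l2 to Ndufa4 was higher in vehicle by 0.89 (exact permutation p = 0.00124, adjusted p = 0.0112). Ndufa4l2 itself was lower in YC than in vehicle livers at -0.64 on the log2 scale (SE 0.24, limma adjusted p = 0.0299), but its ratio to Ndufa4 differed by -0.43 and did not pass (exact permutation, adjusted p = 0.38).

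The c ring of complex V is made from 3 genes, Atp5g1, Atp5g2 and Atp5g3, that encode the same mature protein with different import sequences. Atp5g3 was the most abundant, at 563 ± 74.6 RPKM in D0, 639 ± 215 in vehicle and 675 ± 105 in YC livers (SD, n = 7, 8 and 7). Atp5g2 stood at 107 ± 14.3, 163 ± 41.8 and 139 ± 17.5, and Atp5g1 at 184 ± 29.1, 266 ± 98.2 and 237 ± 57.9. The log2 ratio of Atp5g2 to Atp5g3 was between -2.52 and -2.18 in D0, between -2.09 and -1.71 in vehicle and between -2.42 and -2.09 in YC livers. D0 and vehicle did not overlap, 5 of 7 YC values lay inside the D0 range, and the highest YC value met the lowest vehicle value at -2.09. The ratio was higher in vehicle than D0 by 0.45 (exact permutation p = 0.000155, the smallest the design allows, adjusted p = 0.0042) and differed by -0.33 in YC against vehicle (exact permutation p = 0.000466, adjusted p = 0.00629). The ratio of Atp5g1 to Atp5g3 was higher in vehicle than D0 by 0.34 (exact permutation p = 0.0042, adjusted p = 0.0283). Because their mature parts are so alike, reads shared between these genes are a limit on each ratio. Without vehicle 3 these differences were 0.47, -0.35 and 0.32.

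Of the 10 assembly factors and other proteins, 2 (20%) were called higher and 2 (20%) lower from D0 to vehicle, under the 28.2% and 29.9% of all genes. Groups did not overlap for 1 in each direction, where 11.2% of all tested genes lay wholly higher and 11.7% wholly lower. Ndufaf3, which helps to build the part of complex I that binds coenzyme Q (chr9:108565537-108567434), ranged from 4.78 to 11.4 RPKM with a median of 7.5 in D0 and from 11.9 to 17.6 with a median of 13.7 in vehicle livers, and the groups did not overlap. It rose by 0.95 on the log2 scale (SE 0.18, limma adjusted p = 0.000114). Its partner Ndufaf4 (chr4:24898083-24905001) ranged from 10.5 to 15.7 RPKM with a median of 12.5 in D0 and from 4.67 to 10 with a median of 7.16 in vehicle livers, again without overlap, and fell by 0.79 on the log2 scale (SE 0.18, limma adjusted p = 0.000556). They were named as the factors of smallest p called higher and called lower, so their opposite directions follow from that choice. In YC against D0, which uses the same D0 libraries, Ndufaf3 and Ndufaf4 were at 1.01 and -0.59. Between YC and vehicle 1 was called, Atp5sl, now named Dmac2 and needed for the membrane arm of complex I, at 0.39 (SE 0.11, limma adjusted p = 0.00395) as deposited and at 0.05 and not called after median-ratio scaling. Cox7a2l, which joins complexes III and IV into supercomplexes, was between 87.4 and 186 RPKM and was called in 0 of the 3 comparisons.

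Related gene lists were counted in the same way, and their YC against vehicle counts are given on both scales. They are to be read against the shares of all genes given above: 28.2% higher and 29.9% lower from D0 to vehicle, and from vehicle to YC 44.6% and 6.14%, or 18.2% and 16.7% after scaling. Of 40 assembly factors outside the symbol rule, 11 (27.5%) were called higher and 10 (25%) lower from D0 to vehicle, close to all genes, and 11 higher (27.5%, below all genes) and 1 lower from vehicle to YC, where median-ratio scaling gave 2 and 12. Cox15, needed to make heme A, was at 1.00 (SE 0.12, limma adjusted p = 1.6e-06) in YC against vehicle, and Coa7 at 1.18 (SE 0.13, limma adjusted p = 1.38e-07) in vehicle against D0. Of 77 mitochondrial ribosomal proteins, 17 were higher and 6 lower from D0 to vehicle, and 11 higher and 3 lower from vehicle to YC, with medians of 0.16 and 0.19, and scaled counts for the latter of 0 and 16. Of 83 cytosolic ribosomal proteins, short abundant transcripts like the subunits, 28 were higher and 0 lower from D0 to vehicle and 0 higher and 7 lower from vehicle to YC, with medians of 0.41 and -0.26, and scaled counts for the latter of 0 and 50. Of 21 genes of mitochondrial biogenesis, transcription and replication, 2 were higher and 15 lower from D0 to vehicle. They include the coactivator Pprc1 at -1.22 (SE 0.14, limma adjusted p = 1.98e-07). From vehicle to YC, 10 of the 21 were higher (47.6%, near the 44.6% of all genes) and 0 lower, where scaling gave 0 and 2.

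Other fuel pathways were counted beside the subunits, with as deposited counts first. Of 14 tricarboxylic acid cycle genes outside complex II, 8 (57.1%) were higher and 2 lower in YC than vehicle livers, with a median of 0.41 where that of all genes was 0.31, and 2 and 3 after scaling. Of 17 carrier, pore and chaperone genes, 8 were higher and 0 lower, and 0 and 1 after scaling, among them Slc25a3, which imports the phosphate that complex V uses, at 0.57 (SE 0.12, limma adjusted p = 0.00033). Of 15 genes of mitochondrial fatty acid oxidation, 2 were higher and 2 lower, and 0 and 7 after scaling, and Acaa2, a thiolase, was at -0.73 (SE 0.11, limma adjusted p = 2.41e-05). Of 21 glycolytic genes, 10 were higher and 1 lower from D0 to vehicle and 8 higher and 3 lower from vehicle to YC (3 and 6 after scaling), with Pkm, the pyruvate kinase of non-hepatocyte and proliferating cells, at 1.90 (SE 0.28, limma adjusted p = 1.22e-05) in the latter. Of 13 hypoxia targets, 2 were higher and 7 lower from D0 to vehicle, and 6 higher and 1 lower from vehicle to YC (5 and 2 after scaling). Of 15 genes for cytochrome c, cytochrome c1 and coenzyme Q synthesis, 5 were higher and 1 lower from D0 to vehicle, and 6 higher and 1 lower from vehicle to YC (2 and 4 after scaling). The shares called higher from vehicle to YC for carriers (47.1%), glycolysis (38.1%), hypoxia targets (46.2%) and the coenzyme Q list (40%) lie near the 44.6% of all genes. Differences between these lists and the subunits were not tested.

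Transcript length moved with the fold changes of genes at large. Among genes outside the members, the median log2 fold change from D0 to vehicle was 0.44 for transcripts under 700 bases and -0.32 for those of 4000 bases and over. From vehicle to YC the same medians were -0.04 and 0.44, and -0.34 and 0.15 after median-ratio scaling. Of the 77 subunits, 35 had a median transcript under 700 bases, and their medians were 0.35 from D0 to vehicle and -0.19 from vehicle to YC. The 17 subunits of 700 bases and over but under 1000 were at 0.37 and -0.02, where 701 other genes were at 0.42 and 0.02. The 18 subunits of 1000 bases and over but under 2000 were at 0.15 and -0.01, where 3200 other genes were at 0.21 and 0.20. From vehicle to YC, 18.3%, 16.1% and 10.2% of other genes of these lengths were called lower, shortest first, and 4, 2 and 0 subunits. Of the 7 subunits of 2000 bases and over, 1 was called lower, where 3.85% of other genes under 4000 were. Called higher were 19.1%, 19.8%, 32.9% and 49.2% of other genes, and 0 subunits. The part of length in the subunit differences was not tested.

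**Figure D5:**
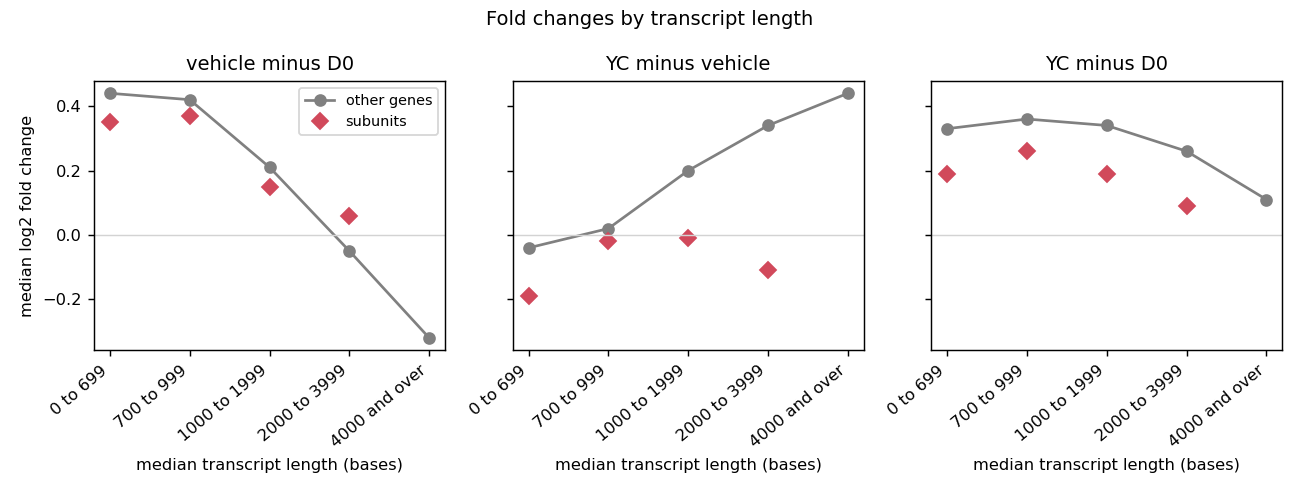
Median log2 fold change by median transcript length for genes outside the members (gray line) and subunits (red diamonds) in the 3 comparisons. From D0 to vehicle the other genes fall with length from 0.44 to -0.32 and the subunits stand at 0.35, 0.37, 0.15 and 0.06, and from vehicle to YC the other genes climb from -0.04 to 0.44 while subunits stay between -0.19 and -0.01.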

How the data were processed

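Polyadenylated RNA of 22 liver libraries was sequenced, and the authors deposited 1 table of RPKM values with 1 column per library. Per the submitters' processing notes, reads were handled with TopHat 1.4.1 and Cufflinks 1.3.0 on mm10. The annotation, strand use and treatment of reads shared with pseudogenes or overlapping genes: not given in the sources used here. The steps between low values put the depth at 25200000 to 41400000 per library if the commonest step is 1 count, and at double that if it is 2, with reads or fragments not told apart. No counting intervals were computed.

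A gene was tested (12537 were) when 7 or more libraries held 0.5 RPKM or more. Limma 3.58.1 (trend and robust, statmod 1.5.0, R 4.3.3) was fitted to log2(RPKM + 0.5) with all libraries in 1 model of 3 groups, with Benjamini-Hochberg adjustment over all genes, two-sided, called under 0.05. The scale understates changes of low genes. Ratios and Fah were tested by exact permutation. Nothing says that replicates are separate animals, and p-values then reflect only how far these libraries spread, part of which may be technical. The limma step was tested on simulated data. Other steps ran in Python 3.11.15 (scipy 1.17.1, pandas 2.3.3, numpy 2.4.6, figures by matplotlib 3.10.9). Coordinates and transcript lengths come from GENCODE on GRCm38, the same build as mm10, and promoters from RefSeq.

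The members and lists were chosen with earlier results of these data known. Named genes are those of each complex with the highest mean, the largest change and the smallest p in either direction in the first 2 comparisons, the complex II genes, the isoform pairs and the assembly factor of smallest p. Others were named after their values were seen. The alternatives were other pseudocounts, filters, scalings and fits, a replicate block, and left-out libraries.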

Additional observations from a re-analysis of the deposited data

Results flagged for a closer look

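The named members were checked for a library far from the rest of its group by the gap of its highest or lowest value to the next, relative to the whole range (Dixon's test at 95%). Chance alone sets apart about 1 group in 20. Of 105 values checked, 11 stood apart.

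In vehicle 3, 6 complex IV genes stood above the other vehicle libraries: Cox6a2 at 168 RPKM, Cox8b at 81.8, Cox7a1 at 70.7, Cox6b1 at 643, Cox6b2 at 5.36 and Cox4i2 at 0.783. Skeletal muscle markers sum to 4686 RPKM in that library.

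Cox6c was high in D0 6, at 610 RPKM, and in YC 7, at 589 RPKM. Cox7a2l was high in YC 7, at 186 RPKM. Atp5sl was low in vehicle 1, at 12.1 RPKM, and in YC 5, at 17.7 RPKM.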

How the results depend on the processing

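Fold changes rest on 7 or 8 libraries a group with wide spread, and the calls depend on scaling and on a few libraries. Of 78 fold changes of named genes, 0 called ones changed sign in any setting run. Correlations gave little sign that the replicate numbers pair the libraries (5 of 21 same-numbered pairs correlated over 0.1, range -0.386 to 0.227, and 2 libraries correlated best with their own number). A weak correlation cannot exclude that same-numbered libraries share a day or batch. With the replicate block, 71 of the 78 kept their side of the threshold, the counts of subunits called higher and lower were 0 and 10 from vehicle to YC, 23 and 0 from D0 to vehicle and 16 and 2 from D0 to YC, and the 4 ratio calls became 0. For the ratios this run flipped signs within same-numbered pairs. So few sign patterns exist that passing after adjustment over 27 comparisons was hardly possible, and the loss of the 4 calls decides nothing.

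From vehicle to YC, the 0 subunits called higher became 1 with a pseudocount of 0.1, 1 with a mean of at least 5 RPKM, 3 with quantile normalization, 5 with equal totals, 1 without trend and robust options and 0 to 3 when single libraries were left out. The 7 called lower became 29 under median-ratio scaling, 12 after quantile normalization, 4 with equal totals, 38 with array weights, 3 with only the 2 groups compared, 27 without YC 6 and YC 7, 18 in libraries with Y-linked transcripts, and 3 to 16 without single libraries.

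From D0 to vehicle, the 19 called higher became 39 with array weights, 35 without YC 6 and YC 7, and 13 to 33 without single libraries. The 35 were 45.5% of the subunits, where 30.8% of all genes were called higher in that run. The 0 called lower became 1 with quantile normalization, 3 with equal totals, 1 with array weights, 1 with only the 2 groups compared, 1 without YC 6 and YC 7, and 0 to 1 without single libraries.

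From D0 to YC, the 15 called higher became 2 with median-ratio scaling, 6 without YC 6 and YC 7, 23 in libraries without Y-linked transcripts (added after seeing the data), and 8 to 19 without single libraries. The 2 called lower became 10, 5 and 1 in these settings, 6 with quantile normalization, 15 with array weights, and 1 to 4 without single libraries. The cause of these moves was not tested.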
